A study of Mus musculus with 4 samples.

Results

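Chromatin immunoprecipitation followed by sequencing (ChIP-seq) was used to map the transcription factor E2F1 in mouse embryonic stem cells (ESCs), and the results here concern E2F1 peaks that lie away from annotated transcription starts. A peak, a region where ChIP reads pile up, was taken as distal when its centre was more than 1000 bp from the start of every transcript in the GENCODE M1 annotation of the mm9 genome. Of 4523 deposited peaks, 4509 lay on assembled chromosomes. Among these, 393 were distal and 4116 remained within 1000 bp of a start. The cells had been kept either in serum medium (serum ESCs) or in medium with the inhibitors PD0325901, which blocks the ERK kinase pathway through MEK, and CHIR99021, which blocks GSK3 (2i ESCs), with 2 biological replicates per condition and an adaptation of over 20 days. The labels name neither the ESC line nor any genetic change, and no input or control ChIP was analysed here, so each value is a level of ChIP signal with no background taken off. The question put to the peaks was where E2F1 signal differed between serum and 2i.

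E2F1 pairs with a DP protein on DNA and is best known for switching on genes of DNA replication and the entry into S-phase, an activity that the pocket proteins RB, p107 and p130 restrain. Most of its binding is at CpG-rich promoters. Peaks away from promoters can lie at enhancers, at CpG islands inside genes, at unannotated starts, or in sequence that occurs many times in the genome, where a short read cannot always be placed.

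The distal peaks held sequence of different kinds, and examples of 2 kinds are printed because the results differ between the kinds. All are from mm9, 5′ to 3′, on the plus strand unless stated. The first kind was sequence with fewer than 50% of its 31-base words in 10 or more places in mm9, most of it GC-rich. In the strongest distal peak, upstream of Mir17hg (the host gene of the miR-17-92 microRNA cluster), and in the peak in a Rarg intron that was higher in serum, CG pairs, in capitals, fill the centre. In the peak downstream of P4ha2 with the largest rise in serum and in the peak near 4930562A09Rik with the largest rise in 2i, they are sparse.
Mir17hg peak, chr14:115440591-115440741: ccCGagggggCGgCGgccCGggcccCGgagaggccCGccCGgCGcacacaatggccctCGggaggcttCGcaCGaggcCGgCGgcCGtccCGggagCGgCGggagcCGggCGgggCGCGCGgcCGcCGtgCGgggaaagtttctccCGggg
Rarg peak, chr15:102078208-102078358: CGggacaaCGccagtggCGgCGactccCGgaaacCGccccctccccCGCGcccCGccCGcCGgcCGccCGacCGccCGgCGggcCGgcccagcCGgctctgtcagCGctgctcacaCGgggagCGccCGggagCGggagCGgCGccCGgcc
P4ha2 peak, chr11:53953687-53953837: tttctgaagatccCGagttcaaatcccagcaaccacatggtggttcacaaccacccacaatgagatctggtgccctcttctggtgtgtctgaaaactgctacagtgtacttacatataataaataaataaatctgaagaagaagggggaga
4930562A09Rik peak, chr5:116832454-116832604: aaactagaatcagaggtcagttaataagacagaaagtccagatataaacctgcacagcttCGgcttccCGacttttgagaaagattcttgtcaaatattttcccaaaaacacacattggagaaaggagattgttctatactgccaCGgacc

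The second kind was sequence found in many places in mm9. These peaks fell into families that share sequence, and 2 members of each of 4 families are shown as examples, around a stretch chosen because many members share it. Capitals mark the 31-base run, held by most members of the family (24 of 40 in family 1, 19 of 20 in family 2, 8 of 10 in family 3 and 8 of 9 in family 4). Over the 71 bases shown, the pairs of families 1 and 3 differ at 1 base each and those of families 2 and 4 at 0, which does not describe the other members or the rest of each peak. The stretch of family 4 on chromosome 15 runs past the end of its peak.
Family 1, chr3:78299898-78299968, minus strand: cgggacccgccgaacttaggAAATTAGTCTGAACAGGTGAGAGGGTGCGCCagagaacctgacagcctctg
Family 1, chrX:64478649-64478719, minus strand: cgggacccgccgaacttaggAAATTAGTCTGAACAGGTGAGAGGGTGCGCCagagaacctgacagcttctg
Family 2, chr15:49080544-49080614, minus strand: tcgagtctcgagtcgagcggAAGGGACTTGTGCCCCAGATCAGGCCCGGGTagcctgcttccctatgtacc
Family 2, chr5:53293472-53293542: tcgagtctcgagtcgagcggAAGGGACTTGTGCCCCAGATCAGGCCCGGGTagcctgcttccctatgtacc
Family 3, chr13:3115196-3115266, minus strand: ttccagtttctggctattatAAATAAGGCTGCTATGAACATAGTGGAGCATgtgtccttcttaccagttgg
Family 3, chr5:78998369-78998439: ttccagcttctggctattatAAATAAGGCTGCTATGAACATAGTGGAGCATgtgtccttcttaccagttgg
Family 4, chr15:64356063-64356133, minus strand: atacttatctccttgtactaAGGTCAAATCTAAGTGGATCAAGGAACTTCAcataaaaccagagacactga
Family 4, chr6:126854617-126854687: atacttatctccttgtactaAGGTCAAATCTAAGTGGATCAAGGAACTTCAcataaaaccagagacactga

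The reads behind these values were few. Reads in all peaks, recovered from the steps of the normalized counts, came to between 248878 and 710519 per sample, and the median distal peak held 27 and 43 reads in the serum replicates and 67 and 36 in the 2i replicates. Replicates differed more over distal peaks than elsewhere: the difference of log2 values between the serum replicates had an SD of 0.74 over distal peaks and 0.61 over the remaining peaks, and between the 2i replicates 0.73 and 0.54. The distal peaks were also weaker, with a median normalized count of 40.6 over the 4 samples against 65.2 in the remaining peaks, and shorter, at a median of 426 bp against 486.5 bp.

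Most distal peaks lay between genes. The centre was intergenic in 233, in an intron in 86, in a coding exon in 58, in a 5′ UTR in 7 and in another exon in 9. The nearest start was a median of 11892 bp away and at most 631094 bp, it belonged to a protein-coding gene for 259 peaks, and the peak lay upstream of it in 198 and downstream in 195. Another E2F1 peak of either kind was within 10 kb of 40 distal peaks, and was itself distal for 13 of them. At the limit of the rule, the distal peaks with the closest centres were at 1010.5 bp (near Cadm1), 1016.5 bp (Usp9x) and 1029 bp (Ehbp1), with log2 fold changes of -0.03, 0.26 and 0.22. Just outside it, peaks at 988 bp (Mex3b), 992 bp (C77370) and 1000 bp (Chst2) had -0.996, -1.20 and -0.24.

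Serum and 2i divided the distal peaks unevenly. Differences are given as serum minus 2i on the log2 scale of the normalized count plus 1, from limma fitted over all 4523 peaks, and a peak was called when this passed 1 in size with an unadjusted p under 0.05. Of the distal peaks, 71 were called, with more signal in serum for 51 and in 2i for 20. Over all 4523 peaks the same rule called 10.3%, of which 4.82% toward serum and 5.48% toward 2i, so that the distal peaks stood at 18.1% in all, above that background for serum (13.0%) and near it for 2i (5.09%). Among the remaining peaks the order was the other way, with 165 higher in serum and 228 in 2i. After Benjamini-Hochberg adjustment over all peaks 8 distal peaks passed 0.05, each of them higher in serum, against 1.46% of all peaks; 0 did so in limma without a trend in the prior, where 69 distal peaks had an unadjusted p under 0.05 toward serum and 28 toward 2i. These counts moved with single libraries. Without serum replicate 1, 43 distal peaks were called, 28 of them toward serum; without 2i replicate 2, 8 were called toward 2i; and 0 to 5 passed the adjustment with 1 replicate left out. The serum values both lay above the 2i values in 136 distal peaks (34.6%, against 24.9% of all peaks), and the 2i values both lay above the serum values in 72 (18.3%, against 24.4%). The median log2 fold change was 0.15 over the distal peaks and -0.03 over all peaks.

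**Figure D1:**
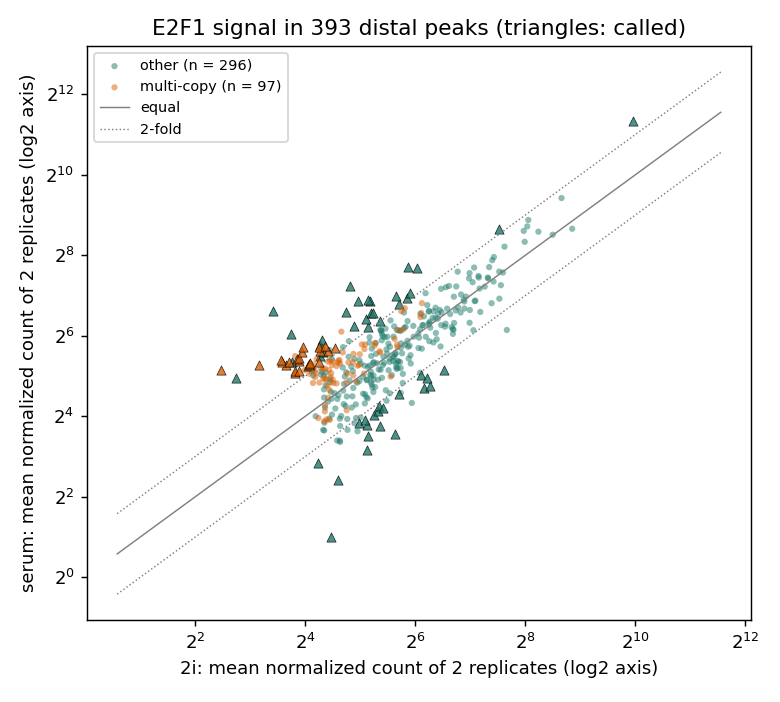
Mean normalized count of the 2 serum replicates (vertical, log2 axis) against that of the 2 2i replicates (horizontal, log2 axis) for each of the 393 distal peaks, with triangles for called peaks, colours for the kind of sequence and dotted lines at a 2-fold difference. The 24 called multi-copy peaks all lie on the serum side, while the called peaks of other sequence lie on both sides, 27 toward serum and 20 toward 2i.

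As a share of all signal in peaks, distal peaks took 7.08% and 6.32% in the serum replicates and 5.46% and 5.97% in the 2i replicates. The means were 6.70% ± 0.54 (SD, n = 2) and 5.72% ± 0.36 (SD, n = 2), and the groups did not overlap. The excess in serum, 0.983 percentage points, was 0.600 without serum replicate 1, 0.649 without multi-copy peaks (described next) and 0.575 when distance was taken from the nearest edge of the peak. The strongest distal peak, near Mir17hg, alone held a mean of 0.604% of the signal in serum and 0.245% in 2i, and without it the excess was 0.624, an alternative chosen after the values were seen. Taking distance from the nearest edge leaves this peak out too. With 2 replicates against 2, the two-sided exact permutation test gave p = 0.333, the smallest it allows.

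Many of the distal peaks were repeated sequence. A peak was counted as multi-copy when at least 50% of its 31-base words occur in 10 or more places in mm9, a limit set after the values were seen. By this limit 97 of the 393 distal peaks (24.7%) were multi-copy, against 10 of the 4116 remaining peaks (0.243%). The limit fell in a thinly filled range: 277 distal peaks had under 10% of such words and 83 had 80% or more. The multi-copy peaks lay far from transcript starts, at a median of 68132.5 bp against 8525.5 bp for the other distal peaks. Of them 78 were intergenic and 19 in introns, and they made up 36 of the 44 distal peaks more than 100 kb from a start. They were short and weak, at a median of 393 bp and a median normalized count of 29.8, and only 1 of them held an E2F motif.

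The distal multi-copy peaks that were called were all higher in serum. Of the 97, 24 (24.7%) were called higher in serum, against the 4.82% of all peaks, and 0 higher in 2i. In limma 27 had an unadjusted p under 0.05, all toward serum, and 0 passed after Benjamini-Hochberg adjustment. On recovered reads edgeR called 27 and DESeq2 21 higher in serum, with 0 toward 2i in each, and after adjustment edgeR left 1 and DESeq2 0. The median signal was 45.3 and 32.4 in the serum replicates and 23.5 and 20.9 in the 2i replicates, and the median log2 fold change was 0.68. The serum values both exceeded the 2i values in 55 of them (56.7%, against 24.9% of all peaks), and the reverse held in 4 (4.12%, against 24.4%). The median peak rested on only 26, 34, 42 and 20 reads in serum 1, serum 2, 2i 1 and 2i 2.

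The count of 24 called distal multi-copy peaks moved with single libraries. Without serum replicate 1, 7 multi-copy peaks were called higher in serum, and without 2i replicate 2, 9 were. Serum replicate 1 was above serum replicate 2 over these peaks by a median of 0.39 on the log2 scale, and 2i replicate 1 above 2i replicate 2 by 0.23. The part of these shifts in the count was not tested. Multi-copy peaks also had a lower GC content, a median of 50.9% within 200 bp of the centre against 75.1% in the other distal peaks, and when each sample was centred on GC content over all peaks 3 were called higher in serum and their median log2 fold change was 0.23. The part of GC content in the difference was not tested. The authors aligned reads with BWA at default parameters. Whether reads that fit several places equally well were kept is not given in the sources used here, so a multi-copy peak stands for reads assigned to that copy. Peaks found in both replicates of a single condition could enter the set, and the condition is not recorded here. The part of this entry rule in the direction was not tested.

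Families of multi-copy peaks were built by joining peaks that share at least 20% of their 31-base words, which placed 94 of the 97 in 7 families. In family 1 (40 peaks on 14 chromosomes, median GC 60.8%, a median of 1952 copies) the median signal was 43.6 and 35.7 in serum and 30.5 and 25.04 in 2i, and 2 peaks were called. Family 2 (20 peaks, 63.1% GC, 2242 copies) had 45.3 and 29.1 in serum and 24.6 and 22.9 in 2i, with 2 called. By their median GC those 2 families are GC-rich, but members of family 1 ranged from 35.9% to 66.8%. Together the 2 families had 4 of 60 peaks called higher in serum (6.67%, against 4.82% of all peaks). Their median log2 fold change was 0.46. By the GC content of each multi-copy peak, 21 of 47 at 50% or less were called higher in serum (44.7%). Above 50% this held for 3 of 50 (6%).

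The 5 remaining families are AT-rich by the same measure, with a median GC of 40.4%. Of their 34 peaks 19 were called higher in serum (55.9%, against 4.82% of all peaks). The median log2 fold change was 1.16 and no peak was below 0. A peak found by the authors in serum alone could enter the set, and which condition gave each peak is not recorded here. The part of that entry rule in this direction was not tested. Family 3 (10 peaks, 12217 copies) had medians of 45.3 and 25.7 in serum and 16.5 and 14.6 in 2i. Family 5 (7 peaks, 9652 copies) had 45.3 and 32.4 in serum and 15.7 and 14.6 in 2i. All 4 peaks of family 6 were called, with log2 fold changes from 1.18 to 1.87. Short motifs are given as a description. AAGATGGC, the core that YY1 reads, was in 28 of the 40 peaks of family 1, in 2 of 4 of family 6 and in none of the other 5 families. CCAAT, the letters bound by NFY, was in all 20 peaks of family 2 and in 5 of 40 of family 1. Among the AT-rich families it was in 5 of 10 (family 3), 8 of 9 (family 4), 6 of 7 (family 5), 4 of 4 (family 6) and 2 of 4 (family 7).

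**Figure D2:**
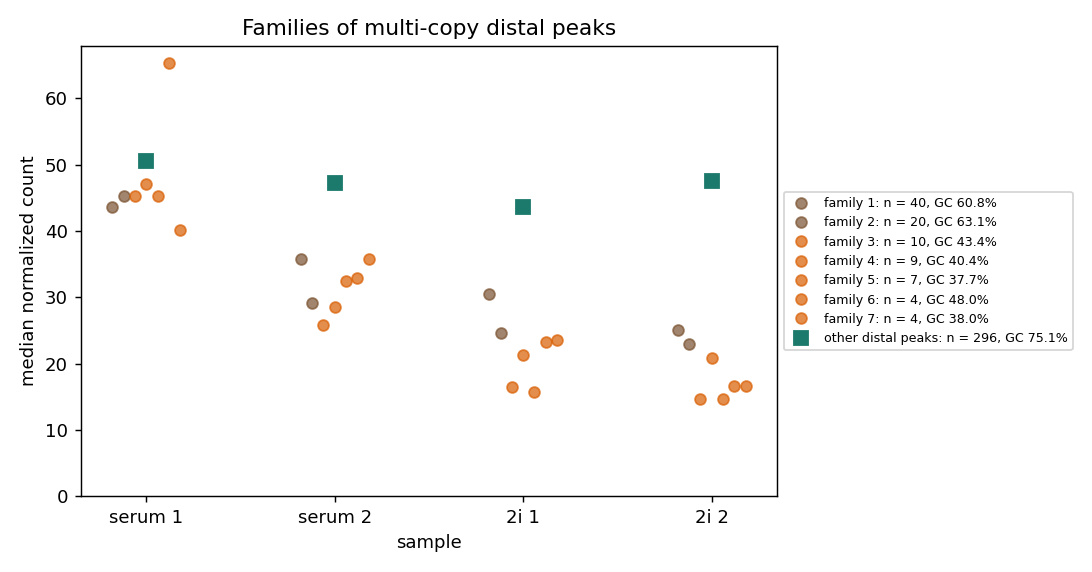
Median normalized count in each sample (vertical) for the 7 families of multi-copy distal peaks (circles, brown for the 2 GC-rich and orange for the 5 AT-rich families) and for the 296 other distal peaks (squares). The squares stay between 43.7 and 50.5, and the circles are at 14.6 to 30.5 in the 2i replicates.

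The multi-copy peak with the largest change, chr10:62980150-62980526 in an intron of Ctnna3 (an alpha-catenin of cell junctions), had normalized counts of 48.8 and 22.9 in serum and 8.96 and 2.09 in 2i. Its log2 fold change was 2.64 ± 0.68 (SE), with a limma adjusted p of 0.0895. The second 2i value lies below the value of 3 reads in that library (3.13). The log2 fold change was 1.68 with a pseudocount of 8, and 3.48 and 1.79 without 2i replicate 1 and 2. The strongest multi-copy peak, chr3:78299802-78300258 of family 1, had 124 and 101 in serum and 68.3 and 70.9 in 2i, a log2 fold change of 0.68 that was not called. The 5 distal peaks farthest from any start were all multi-copy. Without a call were those at 631094 bp from a U6 gene, 531966 bp from Msl3l2, 523565 bp from SNORA17 and 422038 bp from Agbl1. The fifth, 446998 bp from another SNORA17 copy, had 45.3 and 33.4 in serum and 16.8 and 16.7 in 2i and was called, with a log2 fold change of 1.17. After centring on GC content the log2 fold change was 0.34 and the call was lost. It was lost too with a pseudocount of 8 (0.92) and without serum replicate 1 (0.95), and, at much the same size, without 2i replicate 1 (1.17) or 2i replicate 2 (1.16).

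The 296 distal peaks that were not multi-copy had a median change near 0. Their medians were 50.5 and 47.2 in serum and 43.7 and 47.5 in 2i, and the median log2 fold change was 0.01. Called were 47, 27 higher in serum (9.12%, against 4.82% of all peaks) and 20 higher in 2i (6.76%, against 5.48%). Rescaled to the same total, the counts were 24 and 26, and with cyclic loess 30 and 10. Without 2i replicate 2 they were 33 and 8, with DESeq2 28 and 12, and with a mean of at least 50 they were 20 and 4. The 8 peaks that passed the Benjamini-Hochberg adjustment were all among them. The direction moved with strength: among the 99 weakest distal peaks 2 of the 59 peaks that were not multi-copy were called toward serum and 10 toward 2i. Among the 98 strongest, 12 of 93 were called toward serum and 0 toward 2i (4 toward 2i at an unadjusted limma p under 0.05).

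**Figure D3:**
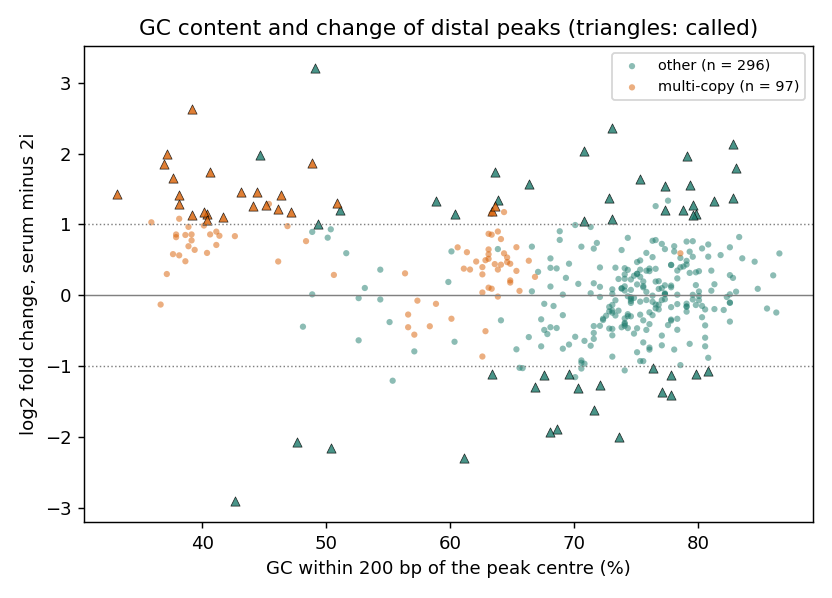
Log2 fold change, serum minus 2i (vertical), against GC content within 200 bp of the centre (horizontal) for each distal peak, with triangles for called peaks and dotted lines at 1 and -1. Multi-copy peaks form one group near 40% GC, mostly above 0.5, and a second near 63%, while the other peaks centre on 0 around a GC content of 75.1%.

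Multi-copy sequence and distance from starts went together. Beyond 100 kb from a start 10 of 44 distal peaks were called (22.7%), all higher in serum, and 9 of those 10 were multi-copy. At over 20 to 100 kb 15 of 117 were higher in serum (12.8%), of which 10 were multi-copy, and 6 higher in 2i (5.13%). Among peaks that were not multi-copy, 7 of 53 at over 1 to 2 kb were called toward serum and 2 toward 2i (13.2% and 3.77%). At over 2 to 5 kb these were 8 of 56 and 4 (14.3% and 7.14%). At over 5 to 20 kb they were 6 of 104 and 8 (5.77% and 7.69%, near the 4.82% and 5.48% of all peaks). At over 20 to 100 kb they were 5 of 75 and 6 (6.67% and 8%), and beyond 100 kb 1 of 8 and 0. Over all distal peaks those closest to starts were the strongest, with a median normalized count of 55.1 at over 1 to 2 kb and 33.5 beyond 100 kb. Among peaks that were not multi-copy these medians were 56.3 and 54.3, with 44.7 at over 20 to 100 kb. The multi-copy peaks beyond 100 kb had 31.4.

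**Figure D4:**
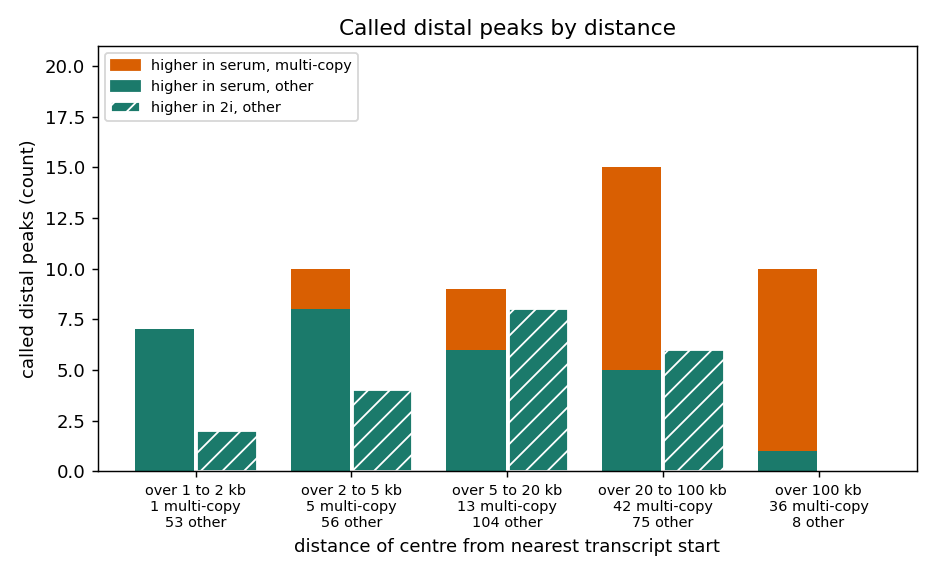
Number of called distal peaks (vertical) by distance of the centre from the nearest transcript start (horizontal), with solid bars for peaks higher in serum, split into multi-copy (orange) and other (green), and hatched bars for peaks higher in 2i. Beyond 100 kb 9 of the 10 called peaks are multi-copy, and at over 1 to 2 kb none are.

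Among distal peaks that were not multi-copy, the 3 with the largest rise in serum were found near P4ha2, Rarg and Ankrd33. At chr11:53953586-53953938, 12567 bp downstream of the start of P4ha2 (a subunit of collagen prolyl hydroxylase), normalized counts were 120 and 77.2 in serum and 5.60 and 15.6 in 2i. The log2 fold change was 3.22 ± 0.51 (SE), with a limma adjusted p of 0.0163. This peak is AT-rich for the group, at 49.1% GC, and 21.4% of its 31-base words occur in 10 or more places.

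Rarg encodes the retinoic acid receptor gamma. The peak at chr15:102078062-102078504, in an intron of Rarg and 1352 bp upstream of the nearest start, had 178 and 125 in serum and 29.1 and 27.1 in 2i, a log2 fold change of 2.37 ± 0.32 (SE) with the lowest limma adjusted p among distal peaks, 0.00867. At chr15:100908719-100909140, 37256.5 bp upstream of Ankrd33, the values were 88.9 and 43.8 against 12.3 and 14.6 (log2 fold change 2.14, limma adjusted p 0.0499). Another distal peak upstream of the same gene, also chosen with its values in view, at chr15:100883198-100883563, had 57.5 and 33.4 in serum and 13.4 and 25.04 in 2i and was also called, without passing the adjustment. The fifth of the largest rises, 45737.5 bp upstream of St18 (a zinc finger transcription factor), rested on few reads, with 26.1 and 36.2 in serum and 6.16 and 7.30 in 2i (log2 fold change 2.04, limma adjusted p 0.0883).

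Of 3 neighbouring distal peaks on chromosome 8 whose nearest starts are microRNA genes, named here after their values were seen, 2 rose in serum. At chr8:86724526-86725002, 7653 bp upstream of Mir23a, normalized counts were 207 and 207 in serum and 61.6 and 69.9 in 2i, a log2 fold change of 1.64 ± 0.25 (SE) with a limma adjusted p of 0.0155. This peak holds an E2F motif, TTTCCCGC. Its neighbour 8165 bp away, chr8:86716385-86716813, whose nearest start is Mir181c, had 101 and 136 in serum and 43.7 and 27.1 in 2i (log2 fold change 1.74, limma adjusted p 0.0357). The next, chr8:86707428-86708010, a further 8880 bp away, had a log2 fold change of 0.57 and was not called.

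Passing the adjustment as well were peaks near Inhbb, Hist1h4d and Gm12974, named here after their values were seen. The Inhbb peak, in the 5′ UTR of the inhibin beta B subunit gene, had 272 and 146 in serum and 72.8 and 43.8 in 2i (limma adjusted p 0.0347). The Hist1h4d peak lies in the coding exon of the histone gene Hist1h2be and had 125 and 130 in serum and 52.6 and 48.0 in 2i (limma adjusted p 0.0433), but 45.0% of its 31-base words occur in 10 or more places, as histone genes are near copies of each other. The Gm12974 peak had 397 and 413 in serum and 177 and 192 in 2i, a log2 fold change of 1.13 with a limma adjusted p of 0.0486. The Hist1h4d peak fell just under the limit of 1 after centring on GC content (log2 fold change 0.99) and the Gm12974 peak with cyclic loess (0.92).

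**Figure D5:**
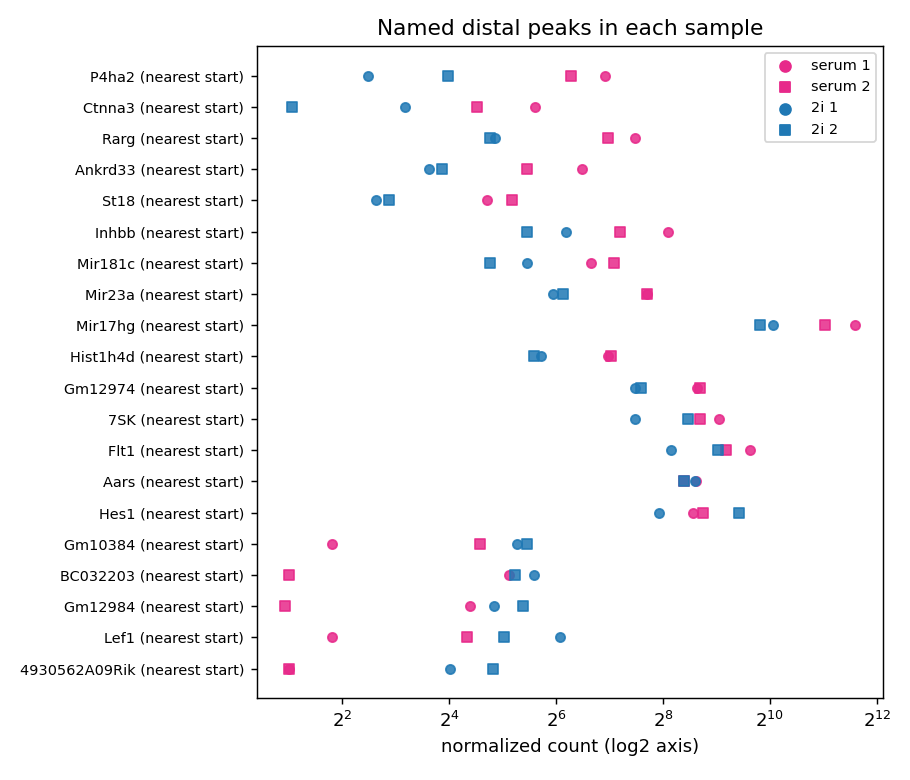
Normalized count (horizontal, log2 axis) of each sample for the distal peaks with the largest changes, an adjusted p under 0.05 or the highest means, each named by its nearest transcript start; pink stands for serum, blue for 2i, circles for replicate 1 and squares for replicate 2. For P4ha2, Rarg and Mir23a the serum and 2i points lie apart, and for the peaks at the bottom, higher in 2i, the serum replicates of Lef1, Gm12984, BC032203 and Gm10384 lie far from each other.

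The distal peaks called higher in 2i had a median normalized count of 28.1, against 35.7 in those called higher in serum, and among the remaining peaks these were 35.4 and 68.2. At chr5:116832340-116832719, near 4930562A09Rik, the serum replicates are both deposited as exactly 2, below the value of 3 reads in either library, and the 2i replicates had 16.2 and 28.2. Against the mean value of 3 reads per serum library, signal was at least 5.49-fold lower in serum. The log2 fold change, -2.90, was -3.28 and -2.52 without 2i replicate 1 and 2, where the call was lost. With both serum values taken as 0 reads, its size depended on the method. It was -1.57 with a pseudocount of 8, -1.47 with cyclic loess, -7.57 with edgeR and -6.54 with DESeq2. The peak 4317 bp upstream of Lef1, a transcription factor that carries the Wnt response with beta-catenin, had 3.48 and 20.0 in serum and 67.2 and 32.3 in 2i (log2 fold change -2.30, limma adjusted p 0.130). It was no longer called without serum replicate 1 (-1.18) or without 2i replicate 1 (-1.78).

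The other large rises in 2i moved with 1 serum library each. Near Gm12984 the values were 20.9 and 1.91 in serum and 28.6 and 41.7 in 2i. Near BC032203 they were 34.8 and 2 in serum and 48.1 and 37.6 in 2i, and near Gm10384 3.48 and 23.8 in serum and 38.6 and 43.8 in 2i. The lower serum value of each lies below the value of 3 reads in its library (5.23 in serum replicate 1 and 2.86 in serum replicate 2). Without the lower serum replicate the log2 fold changes were -0.70, -0.28 and -0.76 and none was called. The calls were also lost without either 2i replicate, at fold changes from -1.89 to -2.42, for Gm12984 with cyclic loess (-1.53), and for BC032203 with cyclic loess (-1.66), eBayes without a trend (-2.07), edgeR (-1.55) and DESeq2 (-1.31).

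The strongest distal peak, chr14:115439810-115441523, lies 1434.5 bp upstream of Mir17hg and was the widest, at 1713 bp. Its normalized counts were 3087 and 2100 in serum and 1072 and 904 in 2i, and the groups were well apart, with a log2 fold change of 1.37 ± 0.39 (SE) that was called but had a limma adjusted p of 0.108. The call was lost without serum replicate 1 (1.09) and with cyclic loess (0.67). Among the 5 strongest, the peak 4062.5 bp downstream of the start of Hes1 (a repressor induced by Notch) had 376 and 432 in serum and 242 and 682 in 2i, and the exonic peak in Aars (alanyl-tRNA synthetase) had 392 and 337 in serum and 387 and 336 in 2i. Neither showed a difference beyond its replicates, with log2 fold changes of -0.01 and 0.01. The remaining 2, neither called, were in an intron of Flt1 (a receptor for vascular endothelial growth factors), with 789 and 582 in serum and 283 and 525 in 2i, and 3968 bp from a 7SK copy, with 530 and 411 in serum and 177 and 355 in 2i. In both, the serum values lay above the 2i values, with log2 fold changes of 0.81 and 0.89. Without 2i replicate 2 they were 1.26 and 1.39, both called, and without 2i replicate 1 they were 0.37 and 0.39. The 7SK peak was called as well without serum replicate 2 (1.08). After centring on GC content the values were 0.23 and 0.28.

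Of all peaks on assembled chromosomes 8.72% were distal, and the counts for the gene lists are too small to set against that share. Of 58 E2F target and cell cycle genes, Cdk6 (a G1 kinase) alone had a distal peak, with 17.4 and 27.6 in serum and 27.99 and 26.1 in 2i, whereas 21 of these genes had a peak within 1000 bp of a start. None of the 38 pluripotency genes in the annotation had a distal peak, and 11 had a peak near the start. Of 30 genes of the ERK response 3 had one. The peak 2349 bp downstream of the start of Junb, an AP-1 subunit, had 71.4 and 37.2 in serum and 17.9 and 20.9 in 2i and was called (log2 fold change 1.37, limma adjusted p 0.150), a call lost without serum replicate 1 (0.91).

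The other 2 ERK genes, Spred2 (an inhibitor of the Ras pathway; 94.1 and 55.3 in serum, 70.5 and 42.8 in 2i) and Maff (a small Maf factor; 57.5 and 43.8, 58.8 and 30.3), had overlapping values. Of 16 genes of the Wnt and GSK3 response, Lef1 and Nkd1 had one, and Nkd1, an inhibitor of Wnt signalling, was not called, with 26.1 and 17.2 in serum and 12.3 and 32.3 in 2i. Of the 11 microRNA host genes in the annotation, out of 14 listed, Mir17hg, Mirlet7a-1 and Mir155 had one. Mirlet7a-1, of the let-7 family, had 240 and 177 in serum and 157 and 168 in 2i, a log2 fold change of 0.35, and Mir155 had 3.48 and 28.6 against 23.0 and 13.6.

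E2F letters were in few peaks, distal or near starts. The E2F motif was searched as TTTCCCGC, TTTCGCGC, TTTGCCGC or TTTGGCGC on both strands within 200 bp of the centre, and it was present in 23 of the 393 distal peaks (5.85%) and in 5.03% of the 4116 remaining peaks. Of the 23, 22 were not multi-copy. The motif, in capitals, is shown for the 5 strongest carriers.
Zfhx3 peak, chr8:111228351-111228410: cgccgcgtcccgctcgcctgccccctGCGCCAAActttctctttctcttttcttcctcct
Zic5 peak, chr14:122863801-122863860: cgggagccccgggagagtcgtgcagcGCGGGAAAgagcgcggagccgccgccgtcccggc
Fam92b peak, chr8:122752550-122752609: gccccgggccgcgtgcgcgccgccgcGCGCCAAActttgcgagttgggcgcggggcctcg
Mir23a peak, chr8:86724848-86724907: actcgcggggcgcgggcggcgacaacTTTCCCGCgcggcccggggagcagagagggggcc
Mical3 peak, chr6:121059916-121059975: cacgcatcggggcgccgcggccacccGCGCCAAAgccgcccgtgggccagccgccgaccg

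Among the 23 carriers 4 were called, 2 in each direction (17.4% in all, against 10.3% of all peaks). The Zfhx3 peak, 10207 bp upstream of that homeobox gene, had 169 and 180 in serum and 135 and 149 in 2i and was not called. Higher in 2i, and also named after their values were seen, were the peaks near Nat8b (10.5 and 17.2 in serum, 36.4 and 33.4 in 2i) and Scaper (12.2 and 18.1, 38.6 and 29.2). Without the first T of the motif, 24.4% of distal and 29.8% of the remaining peaks matched.

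Shares of other letters are given as descriptions. GGGCGG, the letters read by Sp factors, was in 69.7% of distal peaks and 93.3% of the remaining peaks, and in 86.5% of the distal peaks that were not multi-copy. CCAAT was in 25.4% and 19.2%, and AAGATGGC in 9.67% and 5.35%, of which the multi-copy peaks held 51 of 100 and 30 of 38. In the distal peaks that were not multi-copy the order turned, at 16.6% for CCAAT and 2.70% for AAGATGGC. The AP-1 letters TGANTCA were in 4.33% and 2.11%, CACGTG in 8.65% and 10.1% (11.1% of the distal peaks that were not multi-copy), and TGACGTCA, the cyclic AMP response element, in 0.254% and 1.82%. The median GC content within 200 bp of the centre was 73.1% in distal and 75.6% in the remaining peaks, and the ratio of observed to expected CG pairs 0.89 and 0.97. In the distal peaks that were not multi-copy these were 75.1% and 0.96.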

How the data were processed

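Reads were aligned by the authors with BWA (mm9), stripped of duplicates and blacklisted regions, and used for MACS2 peak calls in each sample, which were intersected between replicates, merged over conditions and counted with bedtools. Their deposited values are size-factor normalized counts, used here as signal. Steps of 1 read were recovered (99.95% of values whole within 0.01 read), and 9 serum values deposited as 2 were taken as 0 reads.

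limma 3.58.1 in R 4.3.3 was fitted to log2(signal + 1) of 4 samples over 4523 peaks with a trended prior and no block, as serum minus 2i. The p-values measure the spread between replicates that the labels call biological. Percent of signal was compared by an exact permutation test. Distances and classes came from GENCODE M1 and copies from 31-base words of the mm9 sequence. Named peaks were the 5 largest called rises in each condition with replicates that did not overlap, the 5 strongest, the 5 farthest and those nearest to genes of 5 lists. Named outside this rule, with their values known, were the other peaks that passed adjustment (Mir23a, Mir181c, Inhbb, Hist1h4d, Gm12974), neighbours of named peaks, the strongest multi-copy peak, E2F motif carriers (the 5 strongest, Nat8b and Scaper) and the peaks at the distance limit. The members and lists were chosen with earlier results of these data known. The alternatives were pseudocounts of 0.1 and 8, a mean of at least 50, 3 scalings, eBayes without a trend, edgeR 4.0.16 and DESeq2 1.42.0 on recovered reads, a replicate block, each replicate left out (limma then assumes that the lone sample varies like the other group), other distance rules and motif windows, and, added after seeing the data, GC centring and other limits for multi-copy peaks. On simulated data limma recovered 195 of 200 peaks changed 4-fold and called 72 unchanged peaks, while 13 unchanged peaks passed adjustment. With no change simulated it called 61 and 0 passed adjustment. The simulated reads had a replicate spread set by mean signal over all peaks. They had no shift between libraries by GC content or copies, so these counts need not hold for distal peaks.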

Additional observations from a re-analysis of the deposited data

How the results depend on the processing

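Each count below is of distal peaks. Called peaks (71) became 47 with a pseudocount of 8, 24 with a mean of at least 50 and 47 without multi-copy peaks, and 43 to 97 with 1 replicate left out. Those higher in serum (51) became 20 with that minimum, 28 after centring on GC content and 27 without multi-copy peaks, and 28 to 68 with 1 replicate left out. Those higher in 2i (20, each of them outside multi-copy sequence, for which the values are the same) became 11 with a pseudocount of 8, 4 with the minimum, 10 with cyclic loess and 12 with DESeq2; with 1 replicate left out they ranged from 8 to 29, and from 8 to 28 outside multi-copy sequence. Adjusted calls (8) became 0 for eBayes without a trend, 13 with DESeq2, 4 after centring on GC content, 15 at over 500 bp and 4 at over 5000 bp, and 0 to 5 with 1 replicate left out. In the fit with a replicate block, 40 passed, 7 of them multi-copy (0 without the block). Over all 4523 peaks, replicates with the same number deviated together with a correlation of only 0.05, so the numbers were not taken to pair the samples. Over multi-copy distal peaks replicate 1 lay above replicate 2 by a median of 0.39 in serum and 0.23 in 2i. Pairing was not tested for those peaks alone. Multi-copy peaks higher in serum (24) became 14 with a pseudocount of 8, 0 with the minimum and 3 after centring on GC content, and 7 to 36 with 1 replicate left out; those higher in 2i (0) were 1 with a limit of 10% of words and 0 to 1 with 1 replicate left out. The median log2 fold change (0.15) became 0.00653 without multi-copy peaks, 0.0707 at the same total, 0.0652 after centring on GC content and 0.236 with cyclic loess; without serum replicate 2 it was 0.238 and without 2i replicate 2 0.231. The excess of signal share in serum (0.983 percentage points) became 1.56, 0.504 and 0.336 at over 500, 2000 and 5000 bp; the last 2 rules leave out the Mir17hg peak. The E2F motif share (5.85%) became 2.54% within 100 bp and 24.4% without the first T.

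Of 32 named peaks, 18 were called, and none of these 18 changed direction under an alternative. Of the 18, 10 lost the call under at least 1 alternative in which they were tested. Named peaks with a mean under 50, such as that of Ctnna3, were not tested under that minimum, and this is not counted as a lost call. A call was gained 5 times, each with 1 replicate left out: by Mir155 (-2.06), Agbl1 (1.69) and 7SK (1.08) without serum replicate 2, and by Flt1 (1.26) and 7SK (1.39) without 2i replicate 2. Directions reversed for 8 peaks that were not called: Msl3l2 to -0.10 after centring on GC content; Mir155 to 0.0583 and U6 to 0.0165 with cyclic loess; Aars to -0.0750 at the same total and -0.26 with cyclic loess; and Nkd1 to -0.00808 at the same total, -0.0154 with edgeR and -0.0348 with DESeq2. With 1 replicate left out, ranges were -0.22 to 0.71 for Maff, -0.76 to 0.73 for Hes1, -2.06 to 0.66 for Mir155, -0.60 to 0.0317 for Cdk6, -0.52 to 0.28 for U6, -0.10 to 0.12 for Aars and -0.59 to 0.74 for Nkd1. The cause was not tested in any of these. The median distal peak held 27 reads in serum replicate 1.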
